A study of Mus musculus with 8 samples.

Results

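The genes described here are 37 members of the mitochondrial chaperone, protease and protein import machinery, picked by name from the 31053 genes listed in every library. They were followed in single cell RNA sequencing of mouse parietal bone, in which each RNA molecule carries a unique molecular identifier (UMI) and is counted once. The study asked how osteoblasts (OBs) respond to misfolding of mutant type I procollagen. Bones came from pups of age P4-5, either wild type (WT) or heterozygous for the G610C substitution in the pro-α2(I) chain (Het G610C), and the labels give the strain B6.129(FVB)-Col1a2tm1Mcbr/J for both genotypes. The substitution is in the germ line, so every cell that transcribes Col1a2 carries it, and all groups were otherwise untreated. There were 4 WT libraries (S1, S2, S5 and S6) and 4 Het libraries (S3, S4, S7 and S8). S1 to S4 were made with 3′ kit version 3 and S5 to S8 with version 3.1. A cell was taken as an OB if it held 10 or more UMIs of Col1a1 and if 2 or more of Runx2, Sp7 and Ibsp reached 2 UMIs. They were split by the share of Col1a1 in the UMIs of the cell into early (eOBs, under 0.75%), differentiating (dOBs, 0.75% to 3.5%) and mature OBs (mOBs, over 3.5%), and all other cells served as the comparison.

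Nearly all mitochondrial proteins are made in the cytosol and imported unfolded. The TOM complex of the outer membrane passes precursors to the small TIM chaperones of the intermembrane space or to the TIM23 channel of the inner membrane, whose motor, built around mtHSP70 (Hspa9), pulls them into the matrix. There the processing peptidase Pmpca/Pmpcb removes the presequence and the chaperonin Hspd1/Hspe1 (HSP60/HSP10) folds many of the products, while Lonp1, Clpp/Clpx and the membrane-bound AAA proteases degrade those that fail. A rise of Hspd1, Hspe1, Lonp1 and Clpp together is the textbook sign of the mitochondrial unfolded protein response.

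Promoter windows, 250 bases before to 50 bases after the annotated start, were found in RefSeq (GRCm38.p6) for 32 of the 37 members. Tomm7, Grpel2, Htra2, Afg3l2 and Hspa9 had none in the table used. Hspd1 and Hspe1, the partners of the chaperonin, are on opposite strands, and RefSeq gives Hspd1 a pair of starts. The 215 bases between the start of Hspe1 and the Hspd1 start farther from it (chr1:55087933-55088147, plus strand) are shown because the core of a heat shock element and that of an ETS site overlap there. Capitals mark GAANNTTC, the heat shock core, and CCGGAAG, the ETS core bound by GABP (NRF-2), on either strand.
Hspd1/Hspe1: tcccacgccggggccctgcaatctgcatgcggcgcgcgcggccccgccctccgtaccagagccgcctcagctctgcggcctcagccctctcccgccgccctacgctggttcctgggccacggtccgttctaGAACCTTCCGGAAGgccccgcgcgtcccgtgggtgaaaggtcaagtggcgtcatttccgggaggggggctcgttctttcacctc
The heat shock core was in the windows of 3 of the 32 members (Hspd1, Hspe1 and Timm9, 9.38%), against 7.86% of all 32851 windows. The windows of Hspd1 and Hspe1 share 285 bases, and their match is the same site. The ETS core, which holds a CpG, was in 14 members (43.8%), against 8.86% of all windows. Member windows had a median of 22 CpG and all windows 7, and no window set of like CpG content was compared. The shares count a member once over its windows, while all windows were counted singly. A match is shown for 8 members from the outer membrane to the matrix, with 9 bases on each side where the window allows, in the direction of the gene and with the core in capitals.
Tomm22: tctcttccgCTTCCGGtgtcctaca
Tomm70a: tgccccgggCTTCCGGtgacctctg
Timm10: ctagacttcCTTCCGGaagtgaccc
Timm23: agccggcgcCCGGAAGgtcagcgtg
Dnaja3: gcctcgcctCCGGAAGacgcgaccg
Grpel1: cctcctcacCTTCCGGggctcccag
Pmpcb: agtcatgacCCGGAAGtacatctcc
Clpp: gttgtagttCCGGAAGccaagccg
The NRF-1 core GCATGCGC was in 3 members (Clpx, Grpel1 and Timm13), against 2.71% of all windows. The letters TGATGNAA, as in elements bound by CHOP and ATF4, were in the windows of none of the 32 and in 3.97% of all windows. These matches describe the letters of the windows and were not tested against any measurement.

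After quality control 46420 cells remained, of which 2671 were OBs: 379 eOBs, 1217 dOBs and 1075 mOBs. Between 42 (Het S8) and 299 (WT S5) mOBs per library were summed, to totals of 664702 (Het S8) to 4805858 UMIs (WT S6), and these sums, not the cells, were the replicates. A library could pool up to 5 pups of 1 genotype, so a test measures the spread between pools. Libraries shared at most 0.663% of the barcodes of the smaller one. The suspensions differed in makeup: cells with haematopoietic markers were 58.7% and 47.5% of the other cells in WT S1 and S2 and 3.33% to 10.0% elsewhere. Cells with chondrocyte markers were 3.53% and 4.59% of the other cells in WT S1 and S2, 46.7% and 30.3% in Het S3 and S4 and 79.7% to 93.4% in S5 to S8, so the other cells differed by kit and, within version 3, by genotype. All 37 members had UMIs in mOBs, from 92 UMIs in all for Tomm6 to 3599 for Hspe1. Tomm6 was the member that did not pass the filter on low counts in mOBs, and it overlaps Gm21981 on its own strand, which may affect its count. Spg7, Phb and Dnaja3 also overlap another listed gene on their strand. Counts of 3′ ends do not read the substitution, so they cannot check the genotype labels. Of the mOBs, 35.4% (Het S4) to 100% (WT S2) of a library held at least 3 detected markers of another cell class. With kit version 3 this share was 86.3% and 100% in WT S1 and S2 and 54.4% and 35.4% in Het S3 and S4. With version 3.1 it was 75.6% and 76.4% in WT S5 and S6 and 89.5% and 90.5% in Het S7 and S8. The genotypes thus differed within each kit version, in opposite directions.

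In mOBs 1 of the 36 members tested rose in Het G610C: Hspa9, mtHSP70 (ENSMUSG00000024359, GRCm38, chromosome 18, 34937414 to 34954357, minus strand). Its level was 77.4, 64.4, 75.1 and 81.2 UMIs per 1000000 UMIs of the summed cells (CPM) in WT S1, S2, S5 and S6. In Het S3, S4, S7 and S8 it was 223, 227, 121 and 125 CPM. Every Het library lay above every WT library, by a wider margin with kit version 3. The log2 fold change was 1.08 (SE 0.18, adjusted p = 0.0199, edgeR), a 2.12-fold rise with a 95% interval of 1.62 to 2.77. Of all 9623 genes tested in mOBs, 49 were called (0.509%). Without WT S1, WT S2, Het S3 or Het S4, each left out alone, the rise was 0.94 to 1.03 on the log2 scale and was not called (adjusted p 0.0684 to 0.111). It was also not called without kit version in the model (log2 fold change 1.23, adjusted p 1.0), with a replicate block (1.09, 0.0612), with cells thinned to 2000 UMIs (0.91, 0.0838) or without OBs holding markers of another class (0.94, 0.147). In bulk sums such as these, more mRNA per cell and a different mix of cells within the gate cannot be told apart.

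The comparison needs no scaling by library totals when Hspa9 is counted against the other 36 members of the same cells. The levels of several of these members followed the kit version, so the ratio is not free of kit effects. Per 100 UMIs of the other members, WT mOBs held 2.94 to 4.81 UMIs of Hspa9 (mean 3.89 ± 0.822 SD, n = 4). Het mOBs held 6.45 to 9.31 (mean 7.80 ± 1.27 SD, n = 4). The ranges overlapped in dOBs (2.74 to 5.19 in WT, 3.99 to 5.75 in Het), in eOBs (3.26 to 4.51 and 3.59 to 7.17) and in the other cells (3.25 to 4.50 and 3.34 to 4.86). These ranges mix both kit versions. The mean ratio with the earlier kit over that with the later was 0.681 in dOBs, 0.685 in eOBs and 0.751 in the other cells. In mOBs it was 1.06. Within a kit version the genotypes did not overlap in dOBs or eOBs, while they overlapped in the other cells with the earlier kit.

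**Figure D1:**
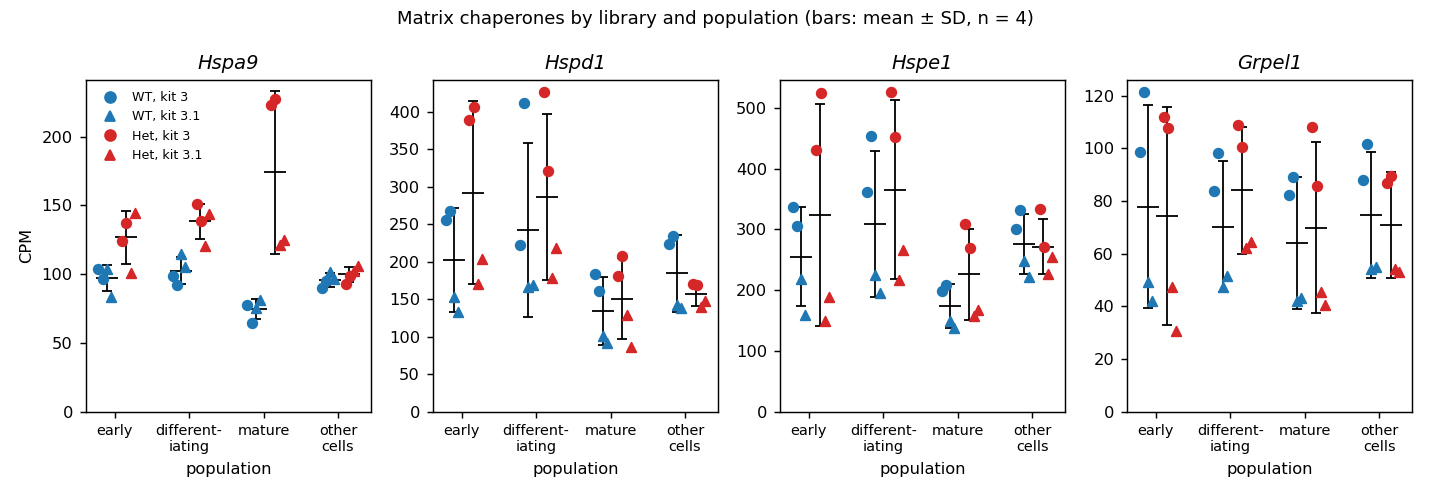
Level of 4 matrix chaperones in CPM (y axis, linear from 0) in early, differentiating and mature OBs and in the other cells (x axis), 1 point per library, with bars for the mean ± SD of 4 libraries. The 4 Het libraries stand above the 4 WT libraries for Hspa9 in mOBs, while Hspd1, Hspe1 and Grpel1 overlap between genotypes and differ by kit version.

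The other matrix chaperones gave values that did not pass the test. Hspd1, the chaperonin HSP60, was at 184, 161, 101 and 92.0 CPM in WT and at 181, 208, 129 and 85.8 in Het mOBs. The genotypes overlapped, and the log2 fold change was 0.11 with a 95% interval of -0.15 to 0.36. Hspe1, its lid HSP10, was at 199, 209, 150 and 138 CPM in WT and 310, 270, 158 and 167 in Het mOBs. Within each kit version both Het libraries were above both WT libraries, yet the log2 fold change of 0.27 (SE 0.11) reached an unadjusted p of 0.0350 and an adjusted p of 0.386 only. Grpel1, the nucleotide exchange factor that resets mtHSP70, had 0.03 (95% interval -0.23 to 0.29), and its paralogue Grpel2 had -0.02 (-0.49 to 0.46). Dnaja3, a J-domain partner of mtHSP70, had 0.35 (-0.07 to 0.78) and Trap1, the mitochondrial HSP90, 0.28 (-0.07 to 0.62). Levels of Trap1 did not overlap between genotypes (14.4 to 17.5 in WT, 17.9 to 25.0 in Het). Such separation was seen for Hspa9, Trap1 and Timm50 among the 36 members and for 2.61% of all genes. After TMM scaling it remained for Hspa9 alone of the members and was seen for 214 of 9623 genes.

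The proteases that clear the matrix and inner membrane did not pass the test either. Lonp1, the main matrix protease, was at 14.4 to 23.9 CPM in WT and 16.0 to 22.6 in Het mOBs, with a log2 fold change of -0.03 (95% interval -0.45 to 0.40). Clpp, the catalytic subunit of the other matrix protease, had 0.31 (-0.08 to 0.70) and its unfoldase Clpx 0.10 (-0.22 to 0.42). For the AAA proteases of the inner membrane the values were 0.03 (Yme1l1), -0.11 (Afg3l2) and -0.08 (Spg7), and Htra2 of the intermembrane space had 0.19. The prohibitins Phb and Phb2, which form rings around these proteases, had 0.25 and 0.13.

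No gene of the import machinery passed the test. Among receptors and pore of the TOM complex, Tomm20 had 0.27 (unadjusted p 0.0492, adjusted p 0.440), Tomm40 0.24, Tomm70a 0.00 and Tomm22 -0.02. Of the small TIMs, Timm13 had 0.14 and Timm8b -0.17. Chchd4, the MIA40 oxidoreductase that folds them, had the lowest value of all (-0.42), with only 3 to 41 UMIs per library and an interval of -1.10 to 0.26. In the TIM23 channel and motor the values ran from -0.24 (Timm17b) to 0.29 (Timm50, the presequence receptor), with 0.01 for Timm44, which tethers mtHSP70 to the channel, and 0.04 for its J-like regulator Pam16. The processing peptidase subunits Pmpca and Pmpcb had 0.12 and 0.00.

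Counted together, 23 of 36 members were above 0, against 49.8% of all genes tested. The members' median was 0.04, against 0.00 over all genes. Other than Hspa9, 35 members ranged from -0.42 to 0.35. The upper end of the 95% interval was below a 2-fold rise for all of these 35, at most 1.81-fold (Phb), and for 29 the whole interval lay within 1.5-fold in either direction. Of the 35, 32 had an upper end below the lower end of the interval of Hspa9. These limits do not hold without OBs holding markers of another class, where 6 libraries remained and the log2 fold changes ran from -1.32 (Timm9) to 1.38 (Timm10), none of them called.

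**Figure D2:**
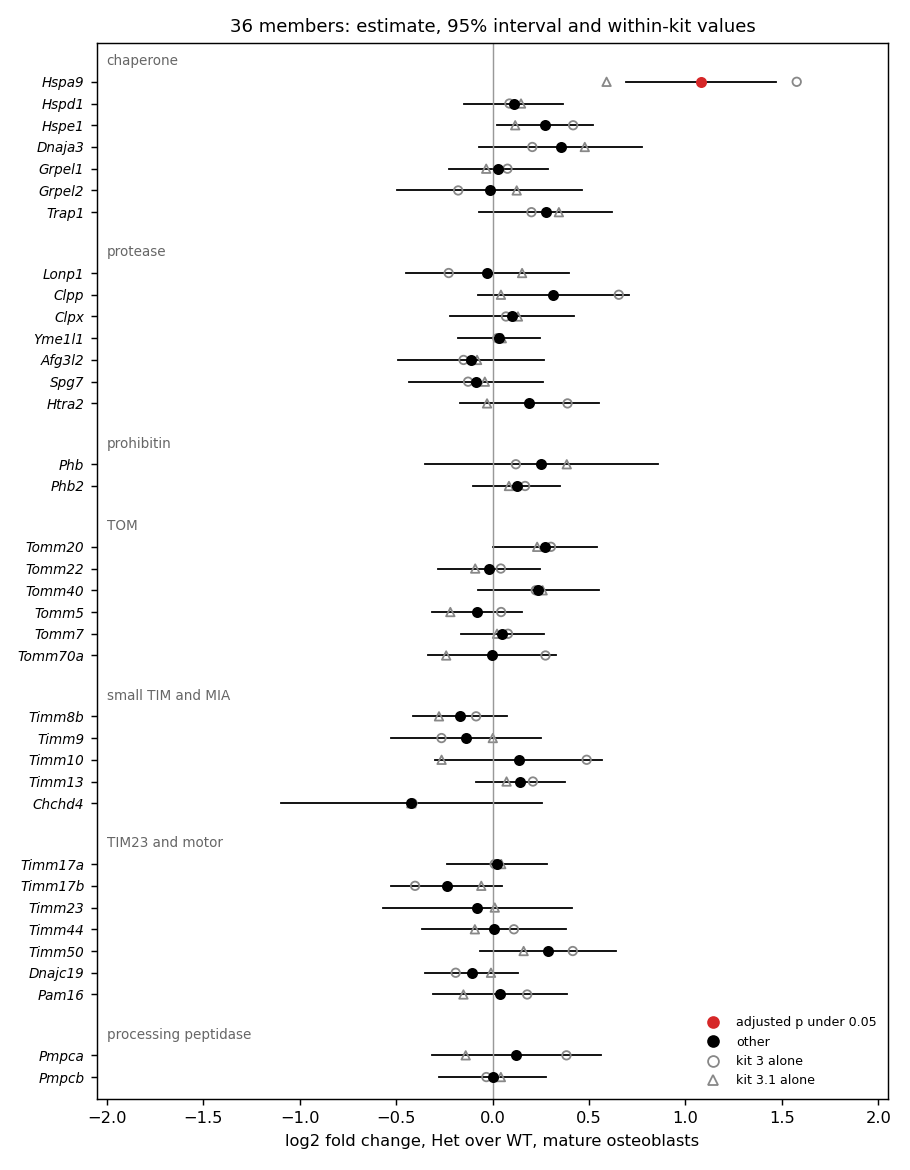
Log2 fold change of Het over WT in mOBs (x axis) for the 36 members tested, by role, with the 95% interval as a line and values within each kit version as open symbols. Hspa9 at 1.08 is the point past the threshold, and the other estimates lie between -0.42 and 0.35.

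Kit version was a term of the model, and the values within each kit differ for some members. Hspa9 had 1.58 with kit version 3 and 0.59 with version 3.1. The test of this difference gave 1.01 (SE 0.20, unadjusted p 0.000327, adjusted p 0.0630), against 10 genes called of 9623 (0.104%). For Clpp the within-kit values were 0.65 and 0.04, and for Timm10 0.49 and -0.26, whereas Tomm20 (0.30 and 0.23) and Tomm40 (0.22 and 0.26) were close. Of 35 members with a value in both, 16 were above 0 in both kits, 6 below 0 in both and 13 of opposite sign.

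Marker sums also differed between genotypes in the same mOBs. The mature OB markers Bglap, Dmp1, Ifitm5 and Alpl, all 4 present in every library, summed to 6229 to 18131 CPM in WT and 1963 to 5178 in Het mOBs. The 5 smooth muscle or pericyte markers, 3 of them present in every library, summed to 55.2 to 212 in WT and 217 to 450 in Het. Of the OB markers Bglap alone was lower in every Het library (4941 to 16620 CPM in WT, 563 to 3091 in Het), while Dmp1, Ifitm5 and Alpl overlapped between genotypes and had higher means in Het. Of the smooth muscle or pericyte markers Cspg4 alone did not overlap (40.8 to 77.2 in WT, 92.0 to 162 in Het), and the other 4, Acta2 among them, did. Haematopoietic markers were highest in WT S1 and S2 (671 and 488 CPM, at most 164 elsewhere; Cd3e at 0 in every library). Sums of endothelial (3.01 to 29.3), fibroblast (9.60 to 79.0), chondrocyte (up to 2311) and erythroid markers (27.1 to 12695 CPM) overlapped between genotypes. In the other cells with haematopoietic markers, Hspa9 was at 92.8 and 106 CPM in S1 and S2, above its level in mOBs of the same libraries. The part of these differences in the result was not tested.

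In dOBs none of the 36 members tested was called, and 1 of 9857 genes was (0.0101%). DESeq2 called none of the members either, and 4 members had an unadjusted p under 0.05 in edgeR (Hspa9, Grpel1, Timm50 and Dnaja3), as did 740 of all 9857 genes. Hspa9 was at 98.4, 91.9, 115 and 105 CPM in WT and 151, 139, 121 and 144 in Het dOBs, without overlap in CPM. Per 100 UMIs of the other members the genotypes overlapped over all libraries but not within a kit version. The log2 fold change of Hspa9 was 0.39 (SE 0.12, unadjusted p 0.00829, adjusted p 0.582). Dnaja3 was the other member without overlap (1.53% of all genes in dOBs), with 0.45 (SE 0.20). Grpel1 and Timm50 had 0.29 and 0.32. The estimates of 31 of 36 members were above 0, with a median of 0.13, against 48.9% of all genes and a median of 0.00.

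In eOBs none of the 33 members tested was called by edgeR, nor any of 8118 genes (0%), while 309 genes had an unadjusted p under 0.05 and DESeq2 called 3 genes, none a member. Hspa9 was at 83.7 to 104 in WT and 101 to 145 CPM in Het eOBs. No member was without overlap there (1.36% of all genes). The other cells had far more UMIs, 24865302 to 68013035 per library, and again none of the 37 members, nor any of 16502 genes, was called by edgeR (0%). There 4234 genes had an unadjusted p under 0.05, and DESeq2 called 1927 genes, 1 of them the member Chchd4, whose log2 fold change in edgeR was -0.67 (SE 0.20, adjusted p 0.171). Hspa9 was at 89.8 to 102 in WT and 92.6 to 106 CPM in Het libraries, a log2 fold change of -0.08 (95% interval -0.37 to 0.21). Of the 37 members 6 had values above 0 after TMM scaling, against 52.3% of all genes, and 16 by library totals. With library totals in place of TMM the members' median moved from -0.17 to -0.03, while that of all genes moved from 0.03 to 0.15. Levels of Timm17a and Clpp did not overlap between genotypes (4.07% of all genes), and after TMM scaling 0 members and 725 of 16502 genes were without overlap.

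Whether the Het effect differed between populations was tested in models with the library as a block. For Hspa9 the effect in mOBs exceeded that in dOBs by 0.70 (SE 0.23, unadjusted p 0.00734, adjusted p 1.0) and that in the other cells by 1.16 (SE 0.38, unadjusted p 0.0114, adjusted p 0.664). None of 37 members and none of 10857 genes was called in the first of these tests (0%; 339 genes at an unadjusted p under 0.05 and 3 by DESeq2). In the second, none of 37 members and none of 15173 genes was called (0%; 1138 and 16). The rise of Hspa9 in mOBs is therefore not shown to differ from its change in the other populations once all genes are adjusted for.

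The levels were also laid out by Col1a1 content, in 5 classes of OBs. In OBs with over 7% Col1a1, the class with the most procollagen mRNA, Hspa9 was at 70.6, 66.8, 71.5 and 67.3 CPM in WT and 235, 225, 177 and 178 in Het libraries. This was the only class of the 5 in which the genotypes did not overlap for Hspa9. Trap1 did not overlap in that class either (10.2 to 11.1 CPM in WT, 14.7 to 20.6 in Het). Other members without overlap were Dnaja3 from 0.75% to 2%, Timm9 and Timm50 from 2% to 3.5%, and Spg7, lower in Het, from 3.5% to 7%. The share of all genes without overlap in these classes was not counted. From 3.5% to 7% Col1a1 the WT libraries ranged from 55.8 to 111 and the Het libraries from 73.7 to 230. In S7 and S8 the values from 3.5% to 7% were 107 and 73.7 CPM, within the WT range. Hspd1 overlapped between genotypes in the class over 7%, at 69.1 to 164 CPM in WT and 83.0 to 168 in Het libraries. These classes held as few as 9 cells of a library (WT S2, 2% to 3.5%), so single values are imprecise.

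**Figure D3:**
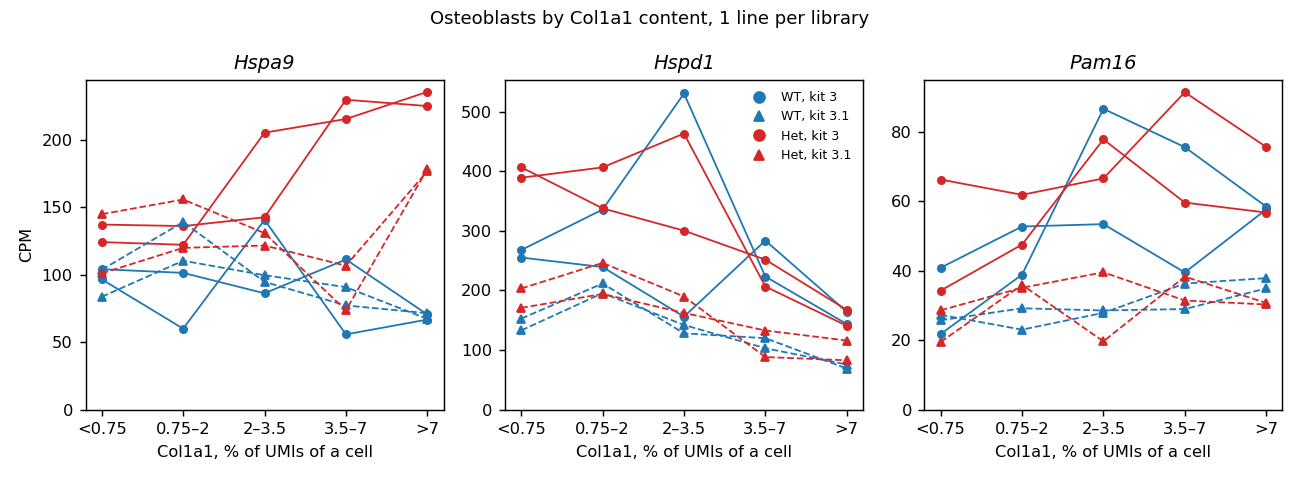
Level in CPM (y axis, linear from 0) of Hspa9, Hspd1 and Pam16 in OBs of 5 classes of Col1a1 content (x axis), 1 line per library, solid for kit version 3 and dashed for version 3.1. In the class over 7% the Het lines of Hspa9 lie at 177 to 235 and the WT lines at 66.8 to 71.5.

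The members were compared between early and mature OBs of WT pups to show how they vary with maturation. Of 37 members 3 were called, all higher in mOBs after TMM scaling (Timm13 and Timm17b not by library totals), against 2396 of 10857 genes (22.1%). Pam16 rose most, with 40.9, 21.8, 27.3 and 25.8 CPM in eOBs of S1, S2, S5 and S6 and 54.6, 62.2, 36.9 and 31.4 in their mOBs. It was higher in mOBs of all 4 libraries, with a log2 difference of 1.01 (SE 0.19, adjusted p 0.000471). No member was called with cells thinned to 2000 UMIs or without OBs holding markers of another class. Over the alternatives the difference of Pam16 ran from 0.54 to 1.13. Timm13, a small TIM, and Timm17b, a subunit of the TIM23 channel, had 0.44 (adjusted p 0.00975) and 0.45 (adjusted p 0.0415) after TMM scaling, but -0.05 and -0.02 by library totals. As a share of all UMIs Timm13 was lower in mOBs of 3 of the 4 libraries, going from 244, 237, 139 and 105 to 207, 218, 138 and 123 CPM. By the rule Col1a1 alone holds over 3.5% of the UMIs of an mOB, and TMM scaling measures members against most other genes. By library totals the median of all genes moved to -0.47 from -0.01, and 17 of 37 members were called, 16 of them lower and Pam16 higher, beside 5033 of 10857 genes, a like share. Trap1 had the lowest value (-0.41, adjusted p 0.0972). Hspa9 had 0.11 (95% interval -0.26 to 0.47).

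**Figure D4:**
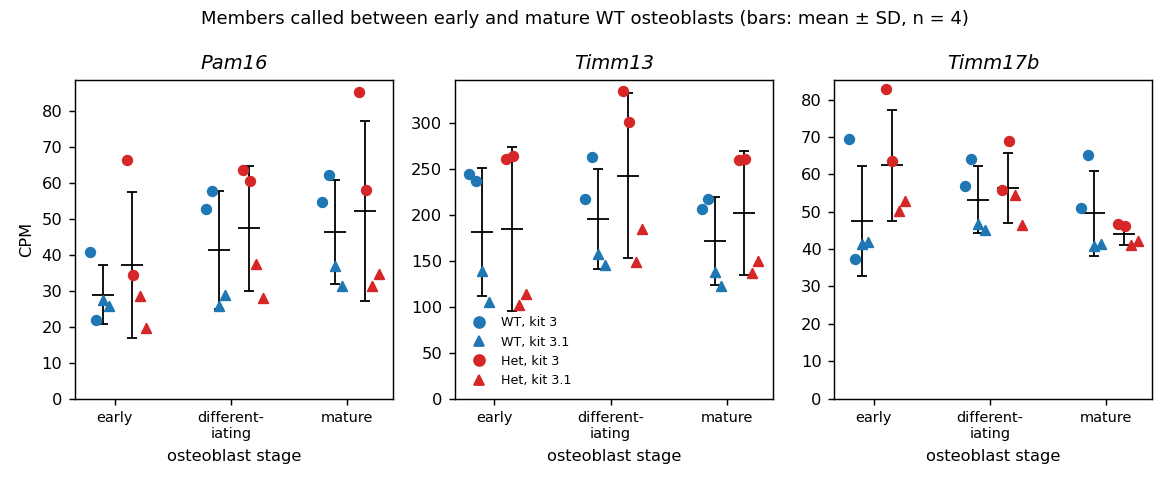
Level in CPM (y axis, linear from 0) of Pam16, Timm13 and Timm17b in early, differentiating and mature OBs (x axis), 1 point per library and bars for the mean ± SD of 4 libraries. Pam16 is higher in mOBs than in eOBs of each WT library, while Timm13 is lower in 3 of the 4.

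Against the other cells of the same WT libraries, OBs as a whole were lower in 2 of 37 members, of 2847 of 14950 genes called (19%). Htra2, a protease of the intermembrane space, was at 30.8, 35.0, 22.5 and 23.6 CPM in OBs of S1, S2, S5 and S6 and at 51.7, 52.6, 34.8 and 32.9 in the other cells, a log2 difference of -0.60 (SE 0.12, adjusted p 0.0202). Tomm7, a small TOM subunit, was at 201, 163, 156 and 140 in OBs and 271, 229, 212 and 208 in the other cells, with -0.48 (SE 0.11, adjusted p 0.0387). Both were lower in OBs of all 4 libraries. Neither was called without the cells with haematopoietic markers among the other cells, or without any one of the 4 libraries. Over the alternatives the difference ran from -0.66 to -0.26 for Htra2 and from -0.83 to -0.42 for Tomm7. Chchd4 had the largest difference (-0.83) and an adjusted p of 0.0742, and its level was 27.3 to 51.7 in WT cells with haematopoietic markers against 9.88 to 11.1 in those with chondrocyte markers.

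The levels of several members followed the kit version. In mOBs the 4 libraries of kit version 3 were all above the 4 of version 3.1 for 14 of 37 members and all below for 4 (Clpx, Yme1l1, Afg3l2 and Timm23). The share of all genes that the kit versions separate was not counted, so these counts do not show that the members stand out. Timm23, the pore of the presequence channel, was at 2.17 to 4.20 CPM in mOBs with version 3, from 3 to 7 UMIs per library, and at 19.3 to 21.1 with version 3.1. Its mean was 6.97-fold higher with version 3.1 in mOBs and 7.31-fold in the other cells. Grpel1 went the other way, at 82.2 to 108 with version 3 and 40.6 to 45.2 with version 3.1. The release of the counting software changed together with the kit, so kit, software and experiment cannot be told apart.

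**Figure D5:**
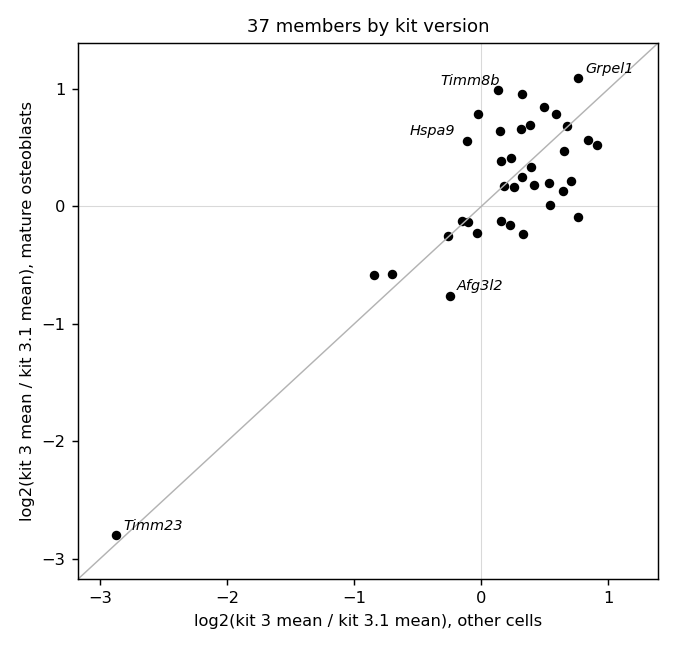
Log2 ratio of the mean level with kit version 3 to that with version 3.1 in the other cells (x axis) and in mOBs (y axis), 1 point per member (n = 37), with the line of equality. Timm23 stands apart near the lower left corner in both populations, and Grpel1 is among the highest in both.

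Other genes of the same compartments gave the setting in mOBs. Of 22 further import and assembly genes all were tested and none was called, with a median of -0.09 and 8 above 0. At a mean of at least 20 CPM the highest were Timm8a1 (0.57, adjusted p 0.309) and Mtx2 (0.34), the lowest Timm21 (-0.29) and Immp1l (-0.25). Of 14 further proteostasis genes 13 were tested and none was called, with a median of 0.01. At that level Chchd2 had 0.08, Afg3l1 0.01, Sod2 -0.04 and Cox17 -0.09. The 13 mitochondrially encoded protein genes had a median of -0.03 and none was called. The highest were mt-Atp8 (0.34) and mt-Nd6 (0.23), the lowest mt-Nd4l (-0.25) and mt-Cytb (-0.16). Mitochondrial transcripts made up 3.73% to 4.50% of UMIs in mOBs of every library. DESeq2 called none of the members other than Hspa9 in mOBs.

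Of 9 regulators of the mitochondrial and integrated stress responses, 1 was called. The regulators were listed with earlier results known, so this count is no independent support. Atf5, the transcription factor linked to the mitochondrial stress response, was at 43.8, 39.8, 21.8 and 30.2 CPM in WT and 240, 198, 66.5 and 123 in Het mOBs. All 4 Het libraries were above all 4 WT libraries, with a log2 fold change of 2.01 (SE 0.21, adjusted p 0.00136). Nfe2l2 had 0.09, Eif2ak3 (PERK) -0.05 and Cebpb -0.33. Of 16 cytosolic and endoplasmic reticulum (ER) counterparts 15 were tested, none was called and all 15 were above 0 (median 0.18). Of all genes tested in mOBs, 49.8% were above 0. Hspa5, the ER paralogue of Hspa9 known as BiP, had 0.48 (SE 0.13, unadjusted p 0.00335, adjusted p 0.159), Cct7 0.32, Hspa8 0.06 and Dnaja2 0.05.

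Of 10 genes that dissociation or heat shock induces, 7 were tested and 1 was called, Fos, which fell by 1.17 on the log2 scale (adjusted p 0.0196). It was at 292, 287, 141 and 202 CPM in WT and 129, 182, 53.0 and 87.3 in Het mOBs. Zfp36 had -0.83 (adjusted p 0.143), Jun -0.49 and Ier2 0.09. The 10 genes summed to 317 to 737 CPM in WT and 232 to 455 in Het mOBs, with overlap, and their part in the rise of Hspa9 was not tested.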

How the data were processed

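The authors deposited unnormalized whole-number UMI counts, from Cell Ranger (5.0.0 for S1 to S4 and 6.0.1 for S5 to S8, per the file headers; build mm10 in the submitters' notes). The other deposited files name genes and barcodes. The members and gene lists were chosen with earlier results of these data known.

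Quality control required 500 detected genes and a mitochondrial share below 10% of UMIs. Doublets were not removed. OBs were rebuilt by the rule in the text, and may differ from the study's. Counts were summed per library and population and tested with edgeR 4.0.16 (limma 3.58.1, R 4.3.3): filterByExpr by genotype and population, TMM, estimateDisp, then glmQLFit and glmQLFTest on genotype plus kit version, or with the library as a block. The study tested cells; libraries were tested here. Calls had a Benjamini-Hochberg adjusted p under 0.05 over all genes. SE is the log2 fold change over the square root of F, and 95% intervals use the t quantile of the fit. Levels are CPM, UMIs per 1000000 of all UMIs in the sum, without TMM. Named genes of further lists are those called in mOBs and the 2 highest and 2 lowest log2 fold changes among genes with a mean of at least 20 CPM. DESeq2 1.42.0 and the settings of the closing section were alternatives. Simulated counts for 9466 genes in the mOB design had 58% of 50 genes with a 2-fold rise called. They had the same dispersion for every gene and no kit effect, so this share is not the power of the real comparison. Gene positions are from GENCODE M21 (GRCm38). Python 3.11.15 was used.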

Additional observations from a re-analysis of the deposited data

Results flagged for a closer look

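Of 74 groups of 4 libraries (37 members in each genotype, mOBs), 1 held a library far from the others. Chance alone gives about 1 in 20 only for 4 draws from a single distribution. Each group mixed both kit versions, so the low count does not show that the libraries were alike. Phb2 was at 94.8 CPM in WT S2 and at 79.7 to 80.4 in the other 3 WT libraries. No member's difference in Het effect between kit versions or populations passed its test.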

How the results depend on the processing

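Hspa9 stayed above 0 in mOBs under every alternative run (0.59 to 1.58) and was called in 12 of 21 with a test. No other member was called in mOBs under any of them. The count of members called in mOBs was 0 without kit version in the model, with cells thinned to 2000 UMIs (16 members left to test) and with OBs holding 3 or more markers of another class left out (WT S2 with 0 mOBs and Het S8 with 4 were then dropped, as sums of under 10 cells were). In the last of these the members tested, other than Hspa9, ranged from -1.32 (Timm9) and -1.30 (Phb) to 1.38 (Timm10), none called, and in every other alternative the 35 members named in the report stayed between -0.72 and 0.65 (Tomm6 aside). It was 0 to 1 without single libraries, and all genes called ranged from 0 to 536, against 49. Same-numbered libraries did not deviate together (r -0.093 with kit version 3 and -0.158 with 3.1), and a replicate block gave 0 members (25 genes called). A crossed pairing, added after seeing this, gave 0 members (28 genes).

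In the other cells DESeq2 called 1 member (1927 genes). The difference by kit version had 1 member called without the filter on low counts (352 genes called in all, against 10), 1 with OBs by 1 UMI (99 genes) and 0 to 1 without single libraries (1 without Het S8, 127 genes), each time Hspa9. WT mOBs against eOBs had 17 members by library totals (5033 genes, against 2396), 6 with mOBs over 5% Col1a1 (2997 genes), 0 when thinned (640 genes), 0 without OBs holding other markers (588 genes), and 1 to 4 without single libraries (1, Pam16, without WT S6). Timm13 turned to -0.0464 and Timm17b to -0.0219 by library totals, and Timm13 to -0.12 without OBs holding other markers. WT OBs against other cells had 4 members by DESeq2 (4255 genes, against 2847), 1 with OBs by 1 UMI (2570), 1 without OBs holding other markers (2233), 0 when thinned (2054), 0 without haematopoietic-marker cells (1778), and 0 without any single WT library (2 without a Het library, none of which this comparison uses). The cause of these shifts was not tested. The members' median in mOBs stayed at 0.03 to 0.09 without single libraries. Tomm6 and Chchd4 had the fewest UMIs in mOBs (92 and 135).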
